A study of Mus musculus with 4 samples.

Results

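The colony-stimulating factor and FLT3 ligand genes Csf1, Csf2 and Flt3l, and the receptor genes Csf1r, Csf2ra, Csf2rb and Flt3, were followed across the cells of mouse KPC tumours. The 7 genes were listed by name as ligands and receptors of these families, from the 33696 features of the count matrices. All 7 had UMIs (unique molecular identifiers, 1 per captured RNA molecule) in each of the 4 libraries. KPC is a mouse pancreatic cancer line, and it was grown under the skin of male C57BL/6NHsd mice 8 to 10 weeks old. Mice were untreated, received the STING agonist ADU-S100 (2 µg into the tumour once), received the LTβR agonist antibody 4H8 (100 µg intraperitoneally 4 times), or received both (combination). On day 14, live CD45+ cells were sorted from 10 tumours pooled per group, and 1 library per group was made with a 5′ kit. With 1 library per group there was no replicate, and no test between groups was possible. All intervals are 95% intervals that cover counting error only, and no difference between groups could be set against the spread between mice.

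M-CSF, the product of Csf1, binds the receptor tyrosine kinase encoded by Csf1r and keeps monocytes and macrophages alive. GM-CSF, the product of Csf2, binds a receptor made of its own alpha chain (Csf2ra) and a beta chain (Csf2rb) that the receptors for IL-3 and IL-5 also use, and it acts on neutrophils, macrophages and dendritic cells. FLT3 ligand, the product of Flt3l, binds FLT3 on progenitors and dendritic cells and is required for normal numbers of dendritic cells.

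Mice carry a second beta chain gene, Csf2rb2, whose product serves the IL-3 receptor. Its reads may be mistaken for those of Csf2rb because the sequences are so alike, so the first 150 coding bases of each are shown. They come from GENCODE M21 on the GRCm38 build. The genes lie beside each other on chromosome 15, Csf2rb at 78325752-78353847 on the plus strand and Csf2rb2 at 78282507-78305721 on the minus strand. In each gene the stretch lies in exons 2 and 3, and the capitals mark the bases that differ between them.

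Csf2rb: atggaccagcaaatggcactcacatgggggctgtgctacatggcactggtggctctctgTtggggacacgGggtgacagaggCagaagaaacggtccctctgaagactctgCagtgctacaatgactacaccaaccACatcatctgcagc

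Csf2rb2: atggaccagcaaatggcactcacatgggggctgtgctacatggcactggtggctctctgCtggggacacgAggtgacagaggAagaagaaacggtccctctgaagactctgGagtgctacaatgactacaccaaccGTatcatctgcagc

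In these stretches 144 of 150 bases were alike. Over the whole coding sequences (2691 and 2637 bases) 92.9% of aligned positions were alike, and 12.6% of the 90-base windows of Csf2rb were also found in Csf2rb2. How the counting treated reads that match both genes is not given in the sources used here, so the levels of both are uncertain to that extent.

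The matrices held 8730, 15404, 14634 and 16322 cells, in the order untreated, STING agonist, LTβR agonist and combination, which all sets of 4 values below follow. The deposited cells had a median of 4712, 3187, 3730.5 and 2157.5 UMIs, the fewest in the combination library. Pairs of libraries shared 34 to 83 cell barcodes. After filtering, 7524, 13444, 13223 and 14667 cells were kept and named by marker genes in 33 clusters. Clusters whose leading genes went against their markers, or whose depth was low, stayed unnamed (13.1, 6.14, 6.37 and 6.63% of kept cells), among them a Foxp3-led cluster of 601 cells. T cells numbered 1146, 530, 1872 and 1552, NK cells 409, 364, 820 and 591, macrophages and monocytes 3528, 5547, 7180 and 8121, neutrophils 512, 5354, 1037 and 1345, and dendritic cells 650, 510, 724 and 753. Carcinoma-like cells numbered 152, 223, 200 and 275 although CD45+ cells had been sorted. These carried Krt8 UMIs in 46.2 to 62.5% of cells and Hmga2 in 75.0 to 86.0%, whereas Epcam had 0, 2, 0 and 2 UMIs, Cldn3 and Cldn4 had none, and Ptprc (CD45) was found in 9.21 to 22.2%. The 8 fibroblast markers in these cells summed to 2427, 2360, 1996 and 1147 CPM with none at 0, above the 10 carcinoma markers at 890, 760, 769 and 890 CPM, and Col1a1 was found in 4.36 to 11.2% of cells. Mast cells or basophils (30, 18, 12 and 22) and B lineage cells, plasma cells included (110, 72, 536 and 1035), are given where a gene turned on them. The level of a gene in a class is its UMIs divided by all UMIs of that class and library, times 1000000 (CPM).

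Csf1 was highest in mast cells or basophils, then in neutrophils, and was low in macrophages, the cells that carry its receptor. In mast cells or basophils it reached 3638, 3259, 3577 and 3185 CPM, from 230, 164, 75 and 88 UMIs, of which 1 cell held 17.0, 31.1, 37.3 and 44.3%. In neutrophils it stood at 624, 390, 564 and 484 CPM. The ranges of these classes over the 4 libraries did not overlap each other or those of any other class. Neutrophil markers in mast cells or basophils summed to 15295, 11448, 8918 and 10241 CPM, with 7, 5, 6 and 3 of 10 at 0. Their own 6 markers summed to 4745, 7453, 3577 and 6007 CPM. The part of neutrophil RNA in the Csf1 level of this class was not tested. T cells followed at 86.1, 57.7, 58.5 and 66.5 CPM and carcinoma-like cells at 46.0, 30.7, 37.0 and 53.5 CPM. Macrophages and monocytes held 13.6, 22.4, 22.3 and 23.6 CPM. In dendritic cells (2.04 to 5.59 CPM) and NK cells (0.764 to 8.64 CPM) Csf1 was lowest, and these neighbours overlapped.

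Within T cells, most Csf1 UMIs lay in a cluster led by Cd8a, Rgs16 and Cd8b1, with 138, 121, 194 and 187 CPM. A cluster of 292 cells led by Galnt18 was at a like level, with 155, 123, 129.6 and 152 CPM from 50, 10, 13 and 19 UMIs. In the Cd8a-led cluster Csf1 was higher with the LTβR agonist (1.41-fold, 1.19 to 1.67) and the combination (1.36-fold, 1.11 to 1.66) than in the untreated library, although T cells as a whole were highest in the untreated library. T cells with UMIs of Cd8a or Cd8b1 and none of Cd4, whatever their cluster, held 118, 88.0, 99.2 and 108 CPM, again highest in the untreated library, so the direction in CD8 T cells depends on how they are defined. The Cd8a-led cluster held 382, 126, 330 and 341 cells and 70.2, 59.4, 70.4 and 72.2% of the T cell Csf1 UMIs. The cluster led by Cd40lg and Cd4 held 56.5, 27.1, 57.3 and 25.9 CPM. Csf1 UMIs were found in 18.8, 12.3, 9.78 and 8.70% of T cells at median depths of 3519.5, 3846.5, 2988 and 1692 UMIs. After each cell was thinned to 1000 UMIs the shares were 6.77, 3.84, 4.63 and 5.53%, against 0.785, 0.581, 0 and 0.245% of NK cells. In neutrophils the thinned shares were 35.6, 22.1, 28.6 and 26.6%.

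Csf2 was rare and came from few cells. In T cells 64, 31, 118 and 42 UMIs gave 13.3, 13.5, 18.6 and 13.4 CPM, and only 1.16 to 1.92% of T cells held any. A single T cell held 20, 19, 46 and 14 of these UMIs, and without it the levels were 9.17, 5.21, 11.4 and 8.91 CPM. The LTβR agonist library was the highest either way, while the order of the others rests on single cells. Within T cells 87.5, 67.7, 71.2 and 83.3% of these UMIs lay in the Cd40lg-led cluster, at 77.2, 51.7, 66.8 and 69.8 CPM. T cells in which Cd4 but neither CD8 chain gene was detected held 88.0, 65.5, 81.0 and 91.5 CPM, and those of the reverse kind 0.356, 6.35, 5.61 and 3.05 CPM. Of the UMIs in the Cd4 group, 1 cell held 41.7, 90.5, 57.5 and 48.3%, and without it the levels were 51.3, 6.24, 34.4 and 47.3 CPM. The cluster led by Scart1 and Il17a also held Csf2, at 27.1, 26.0, 31.1 and 16.2 CPM from 1 to 6 UMIs.

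NK cells held 31, 1, 21 and 3 Csf2 UMIs, which is 21.5, 0.665, 8.02 and 2.85 CPM. Of these, 45.2% in the untreated and 61.9% in the LTβR agonist library came from 1 cell each. Mast cells or basophils held 0, 74, 32 and 0 Csf2 UMIs. The 74 UMIs came from 11.1% of 18 cells and the 32 UMIs from 8.33% of 12 cells, so the high level of 1471 and 1526 CPM in those libraries rests on very few cells. The single cell with most Csf2 UMIs held 16.7, 44.6, 25.3 and 20.9% of all Csf2 UMIs of its library. Neutrophils held 1 Csf2 UMI in all 4 libraries together, in the untreated library. Macrophages and monocytes held 9, 3, 0 and 0 UMIs, and a count of 0 there allowed up to 0.0766 and 0.103 CPM.

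Flt3l was highest in NK and T cells. NK cells held 60.4, 77.1, 87.9 and 69.3 CPM and T cells 54.0, 59.9, 66.2 and 48.4 CPM. NK cells were above T cells in all 4 libraries, by 1.29-fold at the median, but the ranges of both classes overlapped. Gamma-delta T cells stood at 72.1, 110, 104 and 57.9 CPM, from 4 to 16 UMIs. The other classes with more than 4 UMIs had far less Flt3l, 8.72 to 12.4 CPM in dendritic cells and 5.82 to 7.02 CPM in macrophages and monocytes. Per cell the gene was sparse, with UMIs in 5.24, 6.10, 8.10 and 7.35% of thinned NK cells and 0.679, 0.700, 0.668 and 0.693% of thinned macrophages and monocytes. The ranges of T cells and dendritic cells did not overlap. Of all Flt3l UMIs in kept cells, T cells held 39.5, 22.1, 39.8 and 32.0% and NK cells 13.3, 18.6, 21.8 and 15.4%. Macrophages and monocytes held 28.4, 42.6, 26.1 and 35.6%, more than either with the STING agonist and with the combination.

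Il34, which encodes the other ligand of the M-CSF receptor and is no member of the list, was named after its values were seen. It stood at 143, 173, 193 and 179 CPM in carcinoma-like cells and at most 2.76 CPM in each of the other 7 classes. Within the dendritic class 34 of its 40 Il34 UMIs lay in the pDC cluster, at 34.6 CPM.

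**Figure D1:**
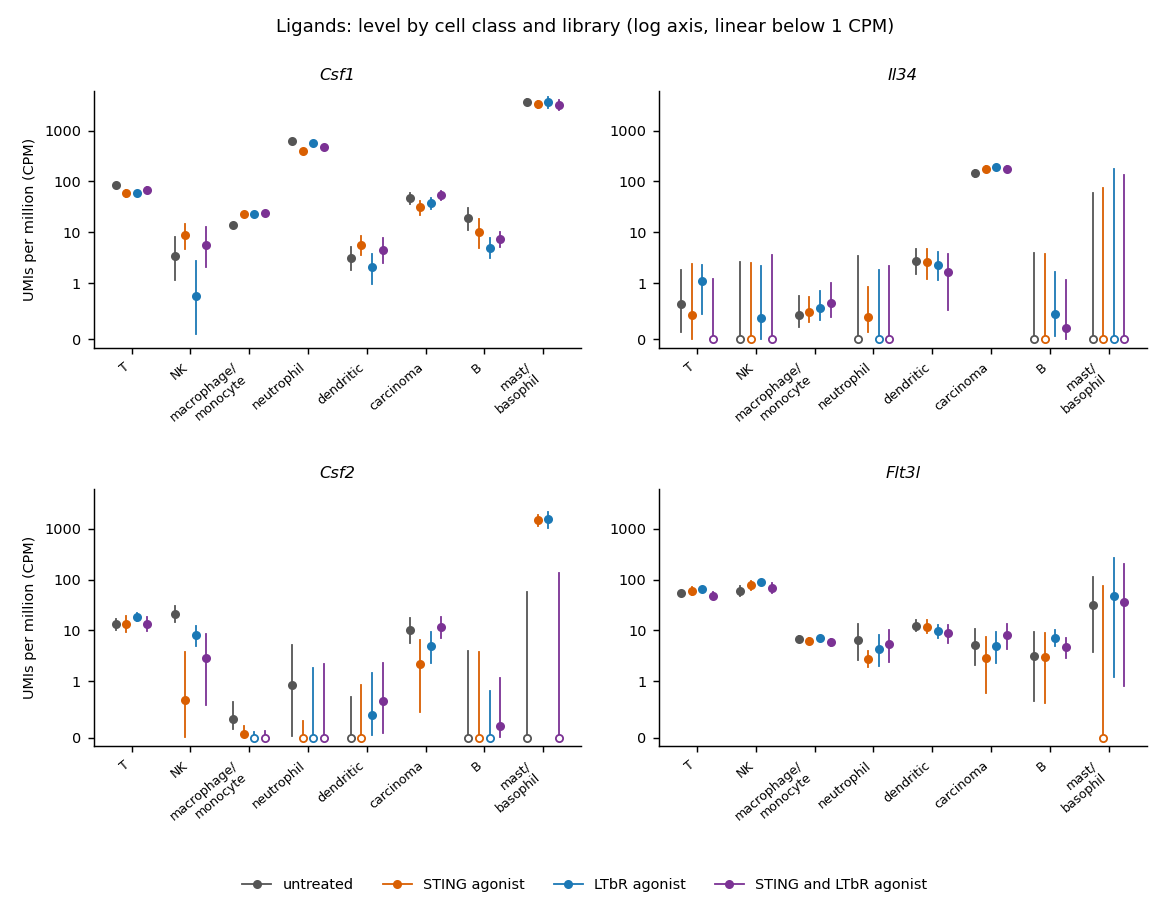
Level of the ligand genes Csf1, Il34, Csf2 and Flt3l in CPM (vertical axis, log scale that is linear below 1) by cell class (horizontal axis) in the 4 libraries, with exact Poisson 95% intervals as lines and open points where no UMI was counted. Csf1 was highest in mast cells or basophils and neutrophils, Il34 in carcinoma-like cells, and Flt3l in NK and T cells at 48.4 to 87.9 CPM.

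Csf1r was carried above all by macrophages and monocytes, at 675, 661, 729 and 681 CPM, and its range there did not overlap that of any other class. Treated libraries stood at 0.979-fold (0.961 to 0.998), 1.08-fold (1.06 to 1.10) and 1.01-fold (0.988 to 1.03) of untreated. Macrophages and monocytes held 91.7 to 93.6% of all Csf1r UMIs in kept cells. Macrophage clusters (675, 659, 743 and 680 CPM) and monocyte clusters (677, 665, 701 and 682 CPM) were alike. Among the macrophage clusters the one led by Cbr2, Cd163, Gas6 and Folr2 was the highest in all 4 libraries, at 1048, 1248, 1369 and 986 CPM. Neutrophils followed at 154, 79.1, 177 and 168 CPM and dendritic cells at 82.2, 116, 142 and 171 CPM, and these overlapped. T cells at 15.2, 13.02, 18.6 and 30.9 CPM and NK cells at 6.50 to 19.0 CPM were near the bottom of the order.

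Flt3 was found mainly in dendritic cells, at 302, 271, 273 and 225 CPM, with UMIs in 27.3, 24.1, 24.2 and 18.8% of thinned cells. The next classes, B lineage cells (3.01 to 7.99 CPM) and macrophages and monocytes (2.97 to 5.41 CPM), lay far below. Dendritic cells held 93.3, 87.4, 84.4 and 77.0% of all Flt3 UMIs in kept cells, while macrophages and monocytes held 6.20, 10.5, 12.3 and 17.3%. No Flt3 UMI was seen in the 82 mast cells or basophils.

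Csf2ra, the alpha chain of the GM-CSF receptor, was a gene of 3 myeloid classes. Neutrophils held 339, 292, 379 and 367 CPM, macrophages and monocytes 225, 208, 254 and 257 CPM, and dendritic cells 165, 171, 199 and 192 CPM. The 3 ranges did not overlap, so that order held in every library. The next class, carcinoma-like cells, stood at 15.5 to 29.95 CPM. Mast cells or basophils, which held much Csf2rb, had 3, 0, 0 and 1 Csf2ra UMIs among 63222, 50315, 20968 and 27633 UMIs of all genes. Their range of 0 to 47.5 CPM overlapped that of carcinoma-like cells, so their level is not set by so few UMIs.

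Csf2rb, the shared beta chain, was found in the same 3 myeloid classes and in mast cells or basophils. Mast cells or basophils held 1439, 1212, 763 and 1773 CPM, neutrophils 655, 859, 1036 and 1005 CPM, dendritic cells 493, 779, 673 and 604 CPM, and macrophages and monocytes 352, 471, 479 and 511 CPM. Within each library neutrophils were above dendritic cells and dendritic cells above macrophages, yet the ranges of neighbours overlapped. In all 3 myeloid classes the untreated library was the lowest. B lineage cells (33.7, 52.2, 63.0 and 80.5 CPM) were above T cells (13.3, 21.3, 29.95 and 26.1 CPM) with no overlap of ranges.

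UMIs of Csf2ra and Csf2rb together in 1 cell, as both chains of the GM-CSF receptor, were seen in 10.9, 12.3, 16.7 and 16.4% of neutrophils thinned to 1000 UMIs. Macrophages and monocytes had both in 5.79, 6.26, 8.04 and 8.05% and dendritic cells in 5.46, 6.17, 6.89 and 5.33%. T cells had both in at most 0.165%. Of the thinned neutrophils, 27.9, 23.5, 31.7 and 30.8% held Csf2ra UMIs and 39.3, 49.99, 54.7 and 54.95% held Csf2rb UMIs. Whether both were found together more often than these single shares would give was not tested.

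**Figure D2:**
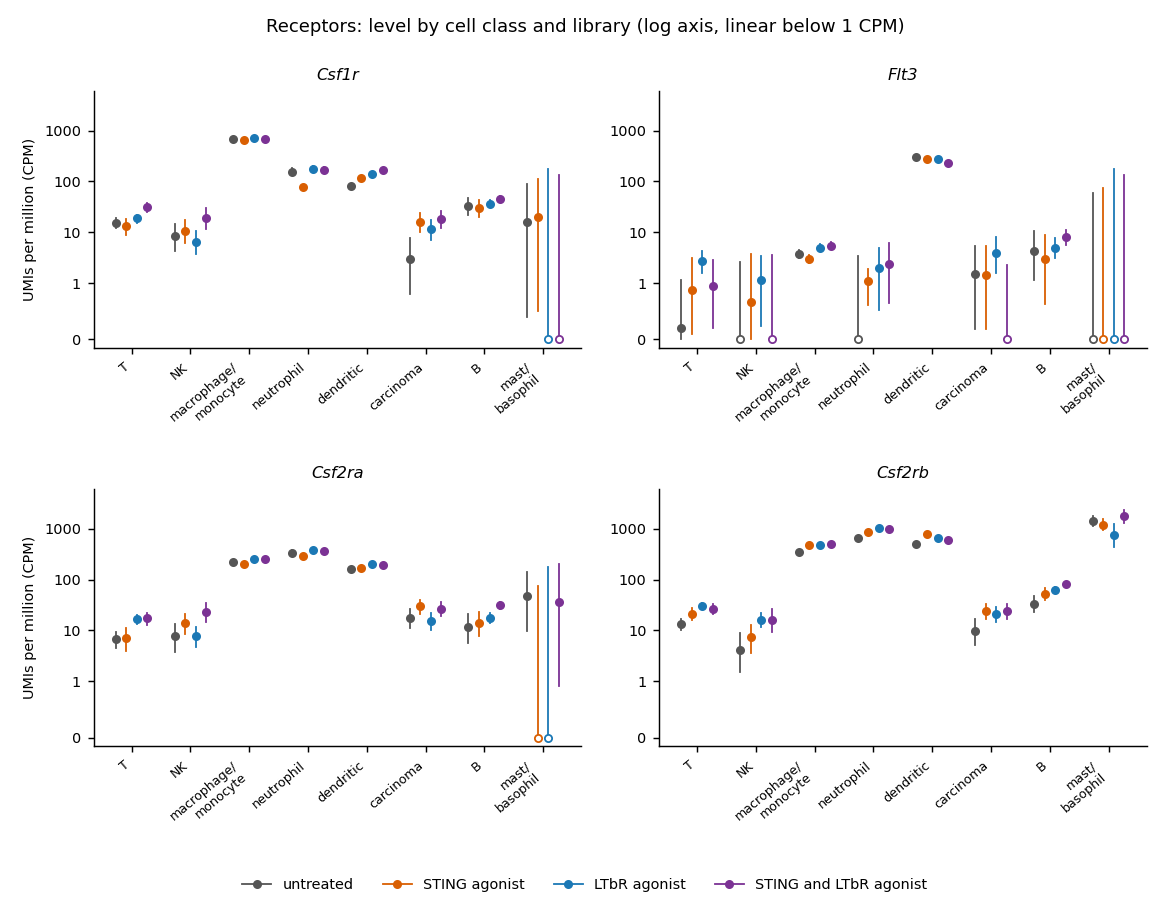
Level of the receptor genes Csf1r, Flt3, Csf2ra and Csf2rb in CPM (vertical axis, log scale that is linear below 1) by cell class (horizontal axis) in the 4 libraries, with exact Poisson 95% intervals as lines and open points where no UMI was counted. Csf1r stood at 661 to 729 CPM in macrophages and monocytes and Flt3 at 225 to 302 CPM in dendritic cells, while both chains of the GM-CSF receptor were found in neutrophils, macrophages and dendritic cells.

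Over all kept cells of a library the ligand Csf1 stood at 40.5, 93.1, 41.4 and 42.4 CPM, and the STING agonist library was 2.30-fold (2.18 to 2.42) above untreated. Neutrophils held 36.4, 77.7, 44.3 and 41.6% of the Csf1 UMIs, and they were 6.80, 39.8, 7.84 and 9.17% of kept cells. The same library was the highest for Csf1 as a whole and the lowest for Csf1 CPM within neutrophils. Flt3 over all kept cells went the other way, at 36.5, 17.9, 25.04 and 19.6 CPM, and dendritic cells were 8.64, 3.79, 5.48 and 5.13% of kept cells. Flt3l over all kept cells was 14.6, 9.19, 16.7 and 10.2 CPM. Csf2rb over all kept cells was 306, 517, 397 and 430 CPM.

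**Figure D3:**
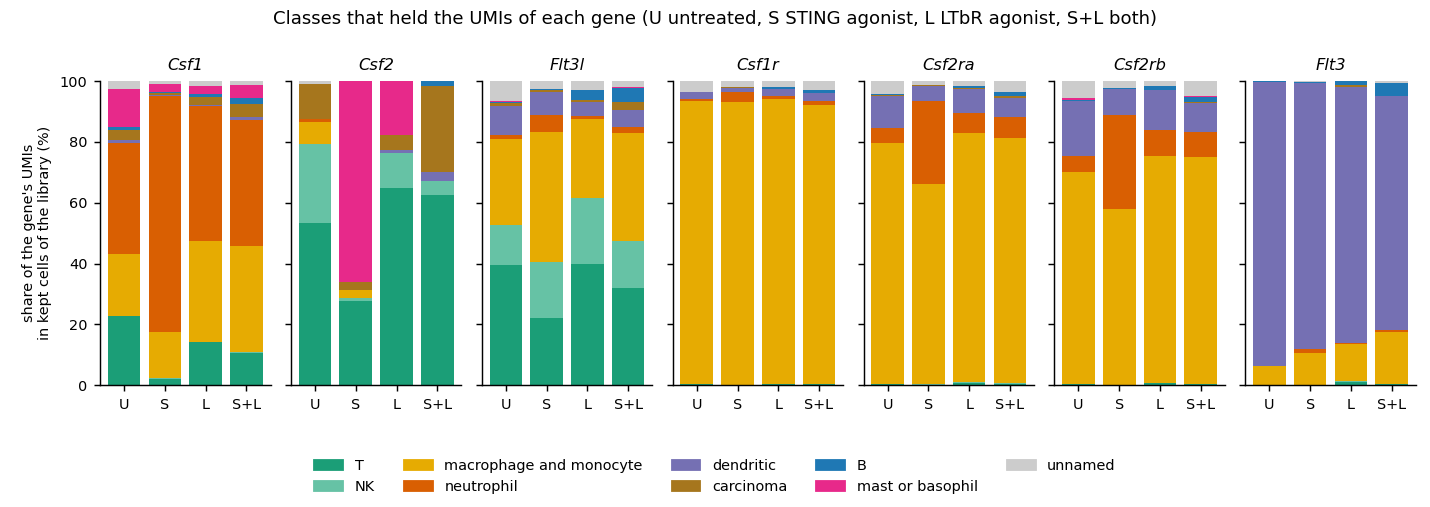
Share of each gene's UMIs in kept cells of a library (vertical axis, percent) that lay in each cell class (colours), for the 7 genes and the 4 libraries (horizontal axis, U untreated, S STING agonist, L LTβR agonist, S+L both). Neutrophils held 77.7% of the Csf1 UMIs in the STING agonist library against 36.4% in the untreated library, while macrophages and monocytes held 91.7 to 93.6% of the Csf1r UMIs in every library.

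Differences between libraries within a class were called when the CPM differed by more than 1.5-fold and the 2 libraries held at least 100 UMIs of the gene together. Of the 42 combinations of 7 genes and 6 classes (T, NK, macrophage and monocyte, neutrophil, dendritic, carcinoma-like), 21, 23 and 21 had enough UMIs in the comparisons of STING agonist, LTβR agonist and combination with untreated. Of these, 5, 5 and 5 were called, and 4 of 20 and 1 of 22 in the comparisons of the combination with the STING agonist and the LTβR agonist alone. Among macrophages and monocytes 1 of 6 tested members was called in each comparison, where 19.4, 8.17 and 8.61% of all tested genes were. Among neutrophils 2, 1 and 1 of 4 were called, where 41.3, 11.8 and 11.5% of all tested genes were. Among dendritic cells 1 of 5, 1 of 5 and 1 of 4 were called, where 10.3, 6.81 and 8.97% of all tested genes were. Among T cells 1 of 4, 2 of 6 and 2 of 5 were called, where 8.81, 9.28 and 7.60% of all tested genes were. No member was called against untreated in NK cells (Flt3l tested, 6.18, 4.38 and 5.71% of all genes) or carcinoma-like cells (Csf1 tested, 14.8, 9.14 and 12.3%). In the comparisons of the combination with the STING agonist and with the LTβR agonist alone, all tested genes were called in 6.84 and 4.02% in T cells, 6.28 and 4.81% in NK cells, 12.4 and 3.28% in macrophages and monocytes, 28.4 and 4.18% in neutrophils, 9.13 and 4.12% in dendritic cells and 21.3 and 7.84% in carcinoma-like cells. With so few members tested, these counts are not read as a result about the list. The median log2 ratio of all tested genes in the STING agonist library against untreated was -0.21 in macrophages and monocytes and -0.37 in neutrophils, and in the other 2 comparisons it was -0.04 and -0.08 in macrophages and monocytes and -0.08 and -0.10 in neutrophils. The medians of the tested members were -0.07, 0.29 and 0.36 in macrophages and monocytes, and -0.45, 0.18 and 0.12 in neutrophils.

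In macrophages and monocytes Csf1 was the called member, and it was higher in every treated library. From 13.6 CPM in the untreated library it stood 1.65-fold (1.46 to 1.86) higher with the STING agonist, 1.64-fold (1.45 to 1.86) with the LTβR agonist and 1.74-fold (1.53 to 1.98) with the combination. The 3 comparisons share the untreated library. The direction was the same in macrophage clusters (12.96, 22.17, 20.58 and 21.98 CPM) and monocyte clusters (16.2, 22.7, 25.9 and 29.3 CPM), but not in every cluster. The class was spread differently over its 10 clusters in each library. A macrophage cluster led by Ch25h and C1qa, with 11.4 CPM of Csf1 over all libraries, held 31.9, 17.7, 14.03 and 22.7% of the class, and a monocyte cluster led by AA467197, Cxcl11 and Ifit2, with 29.6 CPM, held 13.6, 26.6, 23.02 and 15.05%. The macrophage clusters led by Plcb1 (38.7 CPM) and by Adm, Mmp12 and Gpnmb (58.3 CPM) held 9.75, 14.1, 9.97 and 12.6% and 7.51, 13.99, 8.79 and 7.77%. The Plcb1-led cluster was named by 4 of 10 macrophage markers and also carried 3 monocyte and 3 neutrophil markers. In the Ch25h-led cluster Csf1 was 1.62-fold (1.18 to 2.22), 2.72-fold (2.03 to 3.68) and 2.52-fold (1.88 to 3.41) of untreated, and in the Cxcl11-led cluster 1.16-fold (0.908 to 1.503), 1.56-fold (1.22 to 2.03) and 1.76-fold (1.34 to 2.32). In the Adm-led cluster, at 56.7, 44.9, 59.8 and 88.1 CPM, the STING agonist library was 0.792-fold (0.637 to 0.989) of untreated, and in the Plcb1-led cluster the LTβR agonist library was 0.365-fold (0.189 to 0.683). A further macrophage cluster, with 6.29 CPM over all libraries, was 0.312-fold (0.141 to 0.640) of untreated with the STING agonist. How much of the class difference lay in the mix of clusters was not tested. Neutrophil markers in the same macrophage and monocyte class had a summed level of 520, 1320, 936 and 1075 CPM, with none of the 10 markers at 0. Per 1000 UMIs of these markers there were 26.1, 16.9, 23.8 and 21.9 Csf1 UMIs in macrophages and monocytes, and 11.9, 5.85, 7.71 and 7.77 in neutrophils. Per marker UMI, Csf1 was thus higher in macrophages and monocytes than in neutrophils in all 4 libraries. The part of neutrophil RNA in the difference between libraries was not tested. Csf2rb stood 1.34-fold (1.30 to 1.37), 1.36-fold (1.32 to 1.39) and 1.45-fold (1.41 to 1.49) above untreated, each short of the call. Flt3 was called between the combination and the STING agonist alone, at 5.41 against 2.97 CPM (1.82-fold, 1.43 to 2.32), where 12.4% of all tested genes were called. Of the 4 lists of dendritic cell markers, 3 were also higher there in macrophages and monocytes, 1542 against 1032 CPM for the 7 cDC2 markers, 252 against 151 CPM for the 9 mature dendritic cell markers and 221 against 201 CPM for the 7 cDC1 markers, with none at 0, while the 7 pDC markers were lower, at 101 against 118 CPM, with 1 at 0 in the combination library. The cDC2 list is not particular to dendritic cells, and it shares Il1r2 with the neutrophil list. It summed to 4771, 3023, 2804 and 3357 CPM in neutrophils and 2592, 3354, 3555 and 3172 CPM in dendritic cells. The Ch25h-led macrophage cluster carried 4 of its 7 markers. The part of the dendritic markers in the Flt3 difference was not tested.

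In neutrophils Csf2rb was higher with the LTβR agonist and the combination, while Csf1 and Csf1r were lower with the STING agonist. Csf2rb was 1.58-fold (1.45 to 1.73) higher with the LTβR agonist and 1.54-fold (1.40 to 1.68) with the combination, and 1.31-fold (1.22 to 1.42) with the STING agonist, which was not called. Csf2rb2 in neutrophils was 76.0, 148, 120 and 92.4 CPM, so it was called higher with the STING agonist (1.94-fold, 1.56 to 2.46) and the LTβR agonist (1.58-fold, 1.22 to 2.05). Csf2ra did not pass 1.5-fold in any comparison, at 0.859-fold (0.771 to 0.960), 1.12-fold (0.985 to 1.27) and 1.08-fold (0.948 to 1.24) of untreated.

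The neutrophil class was spread differently over its 3 clusters in each library. The cluster led by Ciart held 31.8, 59.7, 49.6 and 42.7% of the cells, that led by Mmp9 and Cxcr2 54.9, 32.5, 41.2 and 48.996%, and that led by Ankrd33b, which also carried macrophage markers, 13.3, 7.77, 9.26 and 8.33%. Csf2rb in the Ciart-led cluster was 1.40-fold (1.21 to 1.63), 2.07-fold (1.77 to 2.43) and 1.78-fold (1.52 to 2.10) of untreated, and in the Mmp9-led cluster 1.23-fold (1.11 to 1.36), 1.35-fold (1.1996 to 1.53) and 1.40-fold (1.24 to 1.58). Csf2rb2 over all libraries was 168 CPM in the Ciart-led, 91.5 in the Mmp9-led and 129 in the Ankrd33b-led cluster. With the STING agonist it was 1.87-fold (1.30 to 2.81), 1.40-fold (1.01 to 1.98) and 2.48-fold (1.33 to 5.11) of untreated within these clusters, and with the LTβR agonist 1.62-fold (1.08 to 2.52), 1.17-fold (0.790 to 1.76) and 2.20-fold (1.12 to 4.73). Within the Mmp9-led cluster neither gene passed 1.5-fold in any treated library. How much of the class differences lay in the mix of clusters was not tested.

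Csf1 in neutrophils was 0.625-fold (0.576 to 0.679) of untreated with the STING agonist, a log2 ratio of -0.68, while the median of all genes there was -0.37. With median-of-ratios scaling the log2 ratio was -0.33 and the call was lost. Csf1 stood at 685, 378, 750 and 546 CPM in the neutrophil cluster led by Ciart and at 708, 437, 484 and 521 CPM in that led by Mmp9 and Cxcr2, so the STING agonist library was the lowest in both. Csf1r in neutrophils was 0.515-fold (0.436 to 0.611) of untreated with the STING agonist, and the combination was 2.12-fold (1.85 to 2.42) above the STING agonist alone, where 28.4% of all tested genes were called. A neutrophil cluster of 692 cells that also carried macrophage markers held 47.0, 24.2, 55.8 and 41.7% of the neutrophil Csf1r UMIs. Csf1r over all libraries was 50.1 CPM in the Ciart-led, 105 in the Mmp9-led and 426 in the Ankrd33b-led cluster, and with the STING agonist it was 1.07-fold (0.616 to 2.03), 0.727-fold (0.567 to 0.944) and 0.772-fold (0.595 to 1.01) of untreated within them, so no cluster passed 1.5-fold on its own. Macrophage markers in neutrophils summed to 778, 427, 743 and 808 CPM, with none of 10 at 0, and Csf1r moved with them at 198, 185, 238 and 207 UMIs per 1000 marker UMIs. Their part in the Csf1r difference, and that of the mix of clusters, was not tested. Without that cluster the log2 ratio of Csf1r went from -0.96 to -0.64.

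**Figure D4:**
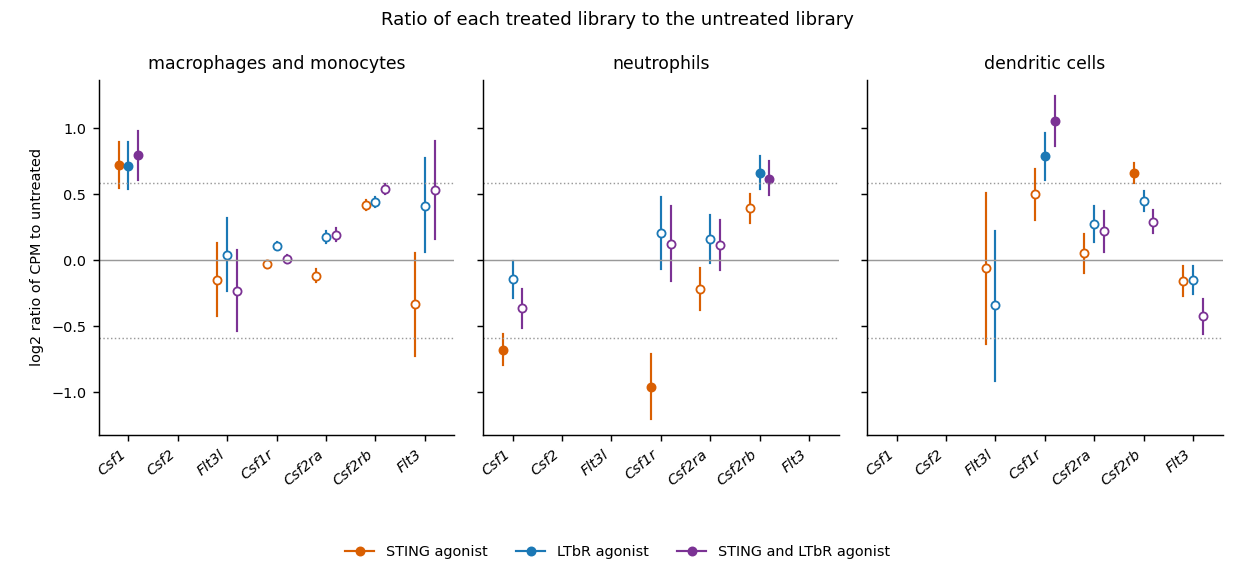
Log2 ratio of CPM in each treated library to the untreated library (vertical axis) for the members with at least 100 UMIs over both libraries (horizontal axis) in macrophages and monocytes, neutrophils and dendritic cells, with exact binomial 95% intervals as lines, filled points where the ratio passed 1.5-fold and dotted lines at that fold. Csf1 was higher in all 3 treated libraries in macrophages and monocytes and lower with the STING agonist in neutrophils, where the median log2 ratio of all genes was -0.37.

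In dendritic cells Csf2rb and Csf1r were higher in treated libraries, but not always past the call. Csf2rb with the LTβR agonist and the combination, and Csf1r with the STING agonist, were not called. Csf2rb was called with the STING agonist, 1.58-fold (1.498 to 1.666) above untreated. Neutrophil markers in dendritic cells summed to 1516, 3038, 2086 and 1838 CPM, with 3, 1, 1 and 2 of 10 at 0, and their part in the Csf2rb difference was not tested. The neutrophil list shares Il1r2 with the cDC2 list, and the cDC2 cluster carried it as a marker, so this sum is not neutrophil RNA alone. Csf1r was called with the LTβR agonist, 1.73-fold (1.53 to 1.95) above untreated, and with the combination, 2.08-fold (1.82 to 2.37). Flt3 stood at 0.896-fold (0.828 to 0.970), 0.903-fold (0.838 to 0.972) and 0.746-fold (0.681 to 0.816) of untreated, each short of the call. Macrophage markers in dendritic cells summed to 609, 728, 813 and 1454 CPM, with none of 10 at 0, which is 135, 160, 175 and 117 Csf1r UMIs per 1000 marker UMIs, against 41.8, 53.3, 67.1 and 56.1 in macrophages and monocytes. Their part in the Csf1r difference was not tested.

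The dendritic class held 4 clusters, conventional type 1 (cDC1), conventional type 2 (cDC2), mature (Ccr7, Fscn1) and plasmacytoid (pDC). Their shares of the class differed between libraries, with cDC1 at 21.5, 11.2, 13.1 and 15.3%, cDC2 at 38.6, 40.6, 52.6 and 54.4%, and pDC at 11.1, 12.2, 8.29 and 3.85%. Flt3 was highest in mature dendritic cells in all libraries but the combination, at 600, 439, 524 and 319 CPM, and in cDC1 it was 310, 384, 420 and 411 CPM. It was 300, 362, 325 and 249 CPM in pDC and lowest in cDC2, at 121, 101, 110 and 109 CPM. In mature dendritic cells Flt3 was 0.732-fold (0.651 to 0.822) of untreated with the STING agonist and 0.531-fold (0.455 to 0.619) with the combination, whereas in cDC1 it was 1.36-fold (1.18 to 1.56) above untreated with the LTβR agonist. The difference between these clusters was not tested.

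Csf1r within the dendritic class lay mainly in cDC2, at 167, 205, 249 and 241 CPM, and the cDC2 ratio to untreated was 1.49-fold (1.31 to 1.71) with the LTβR agonist and 1.45-fold (1.25 to 1.68) with the combination. In mature dendritic cells it was 32.6, 56.5, 20.9 and 143 CPM, highest in the combination library (4.402-fold of untreated, 3.01 to 6.55). Csf2rb with the STING agonist was 1.88-fold (1.64 to 2.16) of untreated in cDC1, 1.57-fold (1.46 to 1.70) in cDC2 and 1.37-fold (1.24 to 1.52) in mature cells, while in pDC it was 417 against 512 CPM. Csf2ra was similar in cDC1 (174 to 218 CPM) and cDC2 (199 to 234 CPM) and lowest in pDC in every library.

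Among the dendritic clusters Csf2rb2 was highest in pDC, at 585, 680, 711 and 424 CPM. Of the UMIs of both beta chain genes, Csf2rb2 made up 53.3% (48.0 to 58.6%), 62.0% (56.9 to 66.9%), 57.7% (51.8 to 63.6%) and 41.98% (31.1 to 53.5%) in pDC. In cDC1 the share was 8.27 to 14.1%, in macrophages and monocytes 18.3 to 21.9%, and in neutrophils 8.42 to 14.7%. In mast cells or basophils it was 34.1, 24.7, 38.5 and 31.9%. These shares depend on how reads common to the sequences above were assigned.

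**Figure D5:**
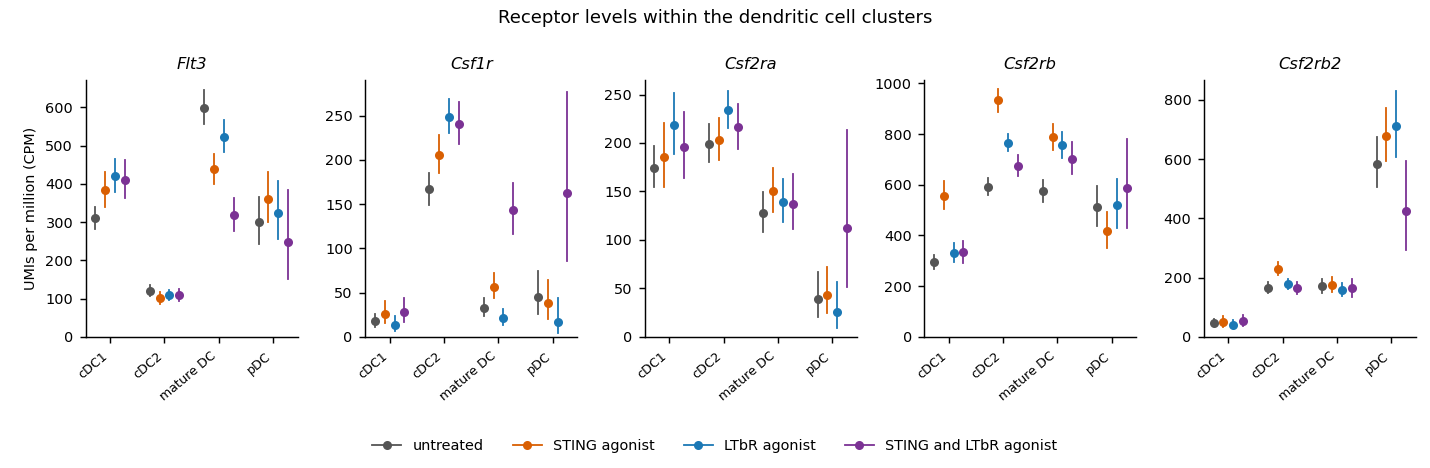
Level of Flt3, Csf1r, Csf2ra, Csf2rb and Csf2rb2 in CPM (vertical axis, linear) in the 4 dendritic cell clusters (horizontal axis) and the 4 libraries, with exact Poisson 95% intervals as lines. Flt3 was lowest in cDC2 at 101 to 121 CPM, Csf1r in cDC2 stood at 167 to 249 CPM, and Csf2rb2 was highest in pDC.

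In T cells Csf1 was highest in the untreated library, at 0.670-fold (0.547 to 0.817), 0.679-fold (0.589 to 0.784) and 0.773-fold (0.651 to 0.915) of it in the others, and none was called. A T cell cluster led by Nsg2 and Ifngas1 had 4.28 CPM of Csf1 over all libraries, against 159 CPM in the Cd8a-led cluster. It held 232, 184, 823 and 735 of the 1146, 530, 1872 and 1552 T cells. How much of the Csf1 difference lay in the mix of T cell clusters was not tested. The called members were receptor genes at low levels, Csf2rb with each treatment, Csf2ra with the LTβR agonist and Csf1r with the combination. Csf2rb with the STING agonist stood 1.59-fold (1.08 to 2.35) above untreated, but 1 cell held 16 of its 49 UMIs, and without the cell with most UMIs in each library the levels were 14.3 against 10.8 CPM, a log2 ratio of 0.41 that was not called. Neutrophil markers in T cells summed to 150, 603, 224 and 218 CPM, with 2, 2, 1 and 1 of 10 at 0. Their part in the Csf2rb differences was not tested. Csf2rb with the combination was 1.96-fold (1.39 to 2.76) of untreated, with a log2 ratio of 0.97 that fell to 0.32 after thinning and was then not called, and per 1000 macrophage marker UMIs there were 51.99, 86.9, 91.3 and 47.2 Csf2rb UMIs in T cells. Csf1r stood at 15.2 and 30.9 CPM in the untreated and combination libraries, and macrophage markers in T cells at 257 and 553 CPM, with none of 10 at 0. Per 1000 macrophage marker UMIs there were 59.3, 53.2, 56.7 and 55.8 Csf1r UMIs in T cells. The markers' part in the Csf1r difference was not tested. A T cell cluster of 82 cells that also carried macrophage and neutrophil markers held 42.2, 4.08, 66.8 and 17.1% of the T cell Csf2rb UMIs, with 60 of its cells in the LTβR agonist library. Without it the log2 ratio of Csf2rb with the LTβR agonist went from 1.16 to 0.40 and was no longer called. Csf2ra with the LTβR agonist was also called, at 16.7 against 6.67 CPM (2.51-fold, 1.67 to 3.85), but without that cluster 24 and 69 UMIs were left in the untreated and LTβR agonist libraries, under the minimum for a call, with a log2 ratio of 1.14. After thinning, Csf2ra was in 0.649, 0.808, 1.27 and 1.49% of T cells and 0.262, 1.45, 0.405 and 1.96% of NK cells. Csf2rb was in 1.58, 2.22, 2.20 and 1.73% of T cells and 0.785, 0.872, 1.75 and 1.23% of NK cells.

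In NK cells Flt3l was 1.28-fold (0.959 to 1.71), 1.46-fold (1.13 to 1.89) and 1.15-fold (0.8298 to 1.59) of untreated, and in T cells 1.11-fold (0.896 to 1.37), 1.23-fold (1.05 to 1.44) and 0.896-fold (0.729 to 1.10). None was called. In carcinoma-like cells Csf1 was called between the combination and the STING agonist alone, 53.5 against 30.7 CPM (1.74-fold, 1.19 to 2.58), where 21.3% of all tested genes were. The direction turned when each cell was named without clusters, to a log2 ratio of -0.38, and over all deposited cells, to -0.44. Fibroblast markers in this class were 1147 against 2360 CPM in the same libraries, and their part in the difference was not tested. Between the combination and the LTβR agonist alone, Csf1r in T cells was the only member of 22 tested pairs that was called, where 4.02% of all tested T cell genes were called. That call was lost after thinning and with each cell named without clusters. Thinned T cells held Csf1r UMIs in 1.39% (LTβR agonist) and 1.49% (combination). Macrophage markers in T cells summed to 328 and 553 CPM in these libraries, and their part in the difference was not tested.

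Of a list of 33 other genes of these pathways (other ligands and receptors, JAK-STAT signalling and feedback, myeloid transcription factors), 29, 29 and 28 had enough UMIs in macrophages and monocytes. Of these, 2, 5 and 4 were called higher and 4, 1 and 1 lower than untreated, where 6.50, 4.86 and 4.91% of all tested genes were higher and 12.9, 3.31 and 3.69% lower. In neutrophils 2, 4 and 2 were higher and 4, 1 and 1 lower, of 21, 17 and 16, where 6.04, 4.74 and 3.57% of all genes were higher and 35.3, 7.11 and 7.94% lower. In dendritic cells 4, 2 and 2 were higher and 0, 0 and 2 lower, of 27, 26 and 26, where 4.83, 4.10 and 4.92% of all genes were higher and 5.50, 2.70 and 4.05% lower. The median log2 ratios of the list were -0.06, 0.00 and 0.01 in macrophages and monocytes, -0.21, 0.04 and 0.07 in neutrophils and 0.02, 0.08 and -0.06 in dendritic cells, beside -0.06, -0.02 and -0.04 for all genes of dendritic cells. Kitl, the ligand of the receptor KIT, was called lower in every treated library in macrophages and monocytes, at 4.81, 1.65, 2.30 and 2.17 CPM. Socs3, a feedback inhibitor of cytokine receptors, was called higher in every treated library in dendritic cells, at 246, 379, 447 and 527 CPM, a ratio to untreated of 1.54-fold (1.43 to 1.67), 1.82-fold (1.70 to 1.95) and 2.15-fold (1.99 to 2.31).

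Over 30 points of class and library with at least 20 cells, the genes most like each member were found by Pearson correlation of log2(CPM + 1) among 14847 genes, as a description only, since points of a library share their depth and points of a class their cells. Nearest to Csf1 were Cks2 (r = 0.93), Gm20186 (0.89) and Map1lc3b (0.88). Nearest to Csf1r were Cd300c2 (0.95), Clec4a2 (0.95) and Gm21188 (0.94), and nearest to Csf2 were Axin2 (0.93), Arnt2 (0.91) and Podnl1 (0.91). Csf2ra was followed by Lpcat2 (0.96), Ogfrl1 (0.95) and Plbd1 (0.95), and Csf2rb by Alox5ap (0.97), Nfam1 (0.96) and Spi1 (0.96), the last a myeloid transcription factor. Flt3 was followed by Zfp366 (0.95), Ngfr (0.95) and Strip2 (0.94), and Flt3l by Nkg7 (0.97), Ms4a4b (0.96) and Cst7 (0.95).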

How the data were processed

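Live CD45+ cells of 4 tumour groups were sequenced as 1 library per group, and groups were taken from the sample labels. The deposited matrices hold unnormalized UMI counts from Cell Ranger (version 8.0.1 in the file headers and 7.1.0 in the labels) with an mm10 reference, and how the authors' counting treated reads matching several genes is not given in the sources used here. Cells with 300 to 5000 genes and at most 6% mitochondrial UMIs were kept. Doublets were removed by score at 0.4% per 1000 cells (305, 949, 857 and 1066 cells), since the automatic threshold of the caller marked 0, 0, 1 and 0. Cells were clustered with scanpy 1.11.5 and leidenalg 0.10.2 (2000 variable genes, 30 components, 20 neighbours, resolution 1) and named by markers raised over 2-fold. No cell annotation of the study was used here, so these names are rebuilt. Levels carry exact Poisson, ratios exact binomial and shares Clopper-Pearson 95% intervals. In log2 ratios 0.5 UMI was added to each count. A count of 0 allows up to 3 UMIs. Pathway genes were named when called the same way in all 3 comparisons with untreated, at most the 5 largest per class, and genes most like a member were sought outside the class markers. The members and lists were chosen with earlier results of these data known. A second experiment with another kit was not analysed here. The call of ratios was tested on simulated data. Alternatives are given in the closing section.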

Additional observations from a re-analysis of the deposited data

Results flagged for a closer look

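Csf1 with the STING agonist against untreated went one way in macrophages and monocytes, with a log2 ratio of 0.72, and the other way in neutrophils, with -0.68. These are opposite directions in 1 library per group, and the difference was not tested. The median log2 ratio of all genes in the same comparison was -0.21 in macrophages and monocytes and -0.37 in neutrophils.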

How the results depend on the processing

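The numbers of members called in the 6 classes were 5, 5 and 5 for STING agonist, LTβR agonist and combination against untreated, 4 for combination against STING agonist and 1 for combination against LTβR agonist, and in that order they became 12, 11, 12, 10 and 10 of 31, 32, 33, 32 and 34 tested with a minimum of 20 UMIs, where 25.1, 16.3, 17.5, 22.8 and 12.5% of all genes tested in these classes were called, and 0, 2, 2, 2 and 0 of 21, 23, 21, 20 and 22 at 2-fold, where 4.94, 1.87, 2.21, 3.84 and 0.963% were. After thinning to 1000 UMIs they were 3 (LTβR agonist), 1 (combination against STING agonist) and 0 (combination against LTβR agonist), with no doublet removal 10 (combination against untreated) and 6 (combination against LTβR agonist), and with each cell named without clusters 2 and 0 for these. Without the T cell cluster that held macrophage and neutrophil markers, an alternative chosen after seeing the data, they were 3 (LTβR agonist) and 2 (combination against LTβR agonist). Without the neutrophil cluster that held macrophage markers, also chosen after seeing the data, 5 of 127 ratios moved and none changed direction. Of the ratios that a setting could give, 43 of 119 moved after thinning (4 more changed direction), 42 over all deposited cells (1 more), 27 with each cell named without clusters (1 more), 24 with no doublet removal, 22 with median-of-ratios scaling, 10 of 125 at resolution 2, 5 without the T cell cluster and 1 without the cell with most UMIs. Pathway genes called at 2-fold with STING agonist, LTβR agonist and combination against untreated numbered 1, 0 and 1 in dendritic cells (2.43, 1.44 and 2.61% of all tested genes) and 1, 0 and 0 in neutrophils (13.5, 2.34 and 1.39%), and 3, 4 and 3 in macrophages and monocytes (6.23, 2.06 and 2.32%). At 2-fold, combination against STING agonist gave 0 in dendritic cells (2.79%), 1 in neutrophils (7.65%) and 4 in macrophages and monocytes (4.20%), and combination against LTβR agonist gave 0 (0.920%), 0 (0.922%) and 1 (0.752%). These lists had 16 to 29 tested genes. With a minimum of 20 UMIs, combination against LTβR agonist gave 1 of 27 in dendritic cells (11.4%) and 3 of 25 in neutrophils (14.8%), and combination against STING agonist 11 of 28 in neutrophils (3976 of all 9952 tested genes), and the other counts stayed within 1.5 times those reported. The log2 ratio of Csf1 in carcinoma-like cells between combination and STING agonist was 0.79 and turned to -0.38 with each cell named without clusters and to -0.44 over all deposited cells. In B lineage cells thinning turned Csf2ra of the combination to -0.53, -0.31 and -0.39 against untreated, STING agonist and LTβR agonist, and Csf2rb to -0.52 against STING agonist. The cause of these changes was not tested. The class with the highest level stayed the same for all 7 members except Csf2rb with no doublet removal (neutrophils) and Csf2 without the cell with most UMIs (T cells). No paired analysis was possible because each group had 1 library and no replicate numbers. Csf2 had the fewest UMIs of the 7 members, 67 to 182 per library, and 1 cell held 16.7 to 44.6% of them.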
